A study of Homo sapiens with 34 samples.

Results

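The genes described here are 45 named members of the cell cycle and DNA replication machinery, among 23185 gene symbols in a table of RNA sequencing read counts. They are a list of names with no measured threshold, put together with earlier results of these data known, each was read from the RefSeq row with the largest total over the libraries used, and all 45 had a row. By role they are 8 G1 cyclins and kinases, 5 inhibitors of cyclin-dependent kinases (CDKs), 5 transcription factors, 8 genes of origin licensing and the MCM helicase, 3 genes of the replication fork and nucleotide synthesis, 4 S to G2 regulators and proliferation markers, 6 genes of mitotic entry, and 6 genes of the spindle checkpoint, kinetochore and mitotic exit.

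The libraries came from H1 cells, an established human embryonic stem cell (ESC) line, directed toward cardiomyocytes (CMs) with the GSK3 inhibitor CHIR99021, then the Wnt inhibitor IWP2 and later insulin. Total RNA was sequenced before differentiation (day 0) and at days 2, 6 and 10. The control cells, called WT, held either a GFP shRNA or the vector with no hairpin, and the other lines held an NKX2-5, ZEB2 or ZNF503 shRNA, whose targets encode transcription factors studied for their part in cardiac differentiation. The comparisons ask how the lines differ at each day and how WT cells change with time. All lines, WT included, were made in H1 ESCs with lentiviral vectors, and each knockdown line rests on 1 hairpin that was picked among several for its knockdown. The vectors were in the cells from day 0 on, and no sorting is described, so the cultures may be mixtures of cell types at the later days. The groups were WT, NKX2-5 shRNA, ZEB2 shRNA and ZNF503 shRNA cells at days 0, 2 and 6, and WT, NKX2-5 shRNA and ZEB2 shRNA cells at day 10, with 2 libraries each (30 libraries in 15 groups). At day 10 the WT and ZEB2 shRNA libraries carry the replicate numbers 3 and 4, and the NKX2-5 shRNA libraries carry 1 and 2. A difference in when or how these were made therefore cannot be told apart from the knockdown. Every library of days 0, 2 and 6 is numbered 1 or 2. Where WT cells of day 10 are set against an earlier day, such a difference cannot be told apart from time either. It can also enter the changes from day 6 to day 10. Only WT changes its numbers when NKX2-5 shRNA cells are compared with it, whereas both lines do in the ZEB2 shRNA comparison. Day 10 cells of the ZNF503 line were not analysed here. The authors describe biological replicates, but nothing in the labels says whether the 2 libraries of a group came from separate cultures. The p-values measure the spread between these libraries, which may not be that between cultures.

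Cells divide by passing through G1, S, G2 and M phases. In G1, D-type cyclins with CDK4 or CDK6, and E-type cyclins with CDK2, release E2F factors from the RB family, and E2F factors then turn on genes for origin licensing, the MCM helicase and nucleotide synthesis. Genes for mitosis are switched on later by MYBL2 and FOXM1 on the MuvB core, which in resting cells belongs to the repressive DREAM complex, and CDK inhibitors such as p21 and p27 hold the cycle in G1. Pluripotent stem cells are known for fast cycling with a short G1 and high levels of these genes, and CMs are known for leaving the cycle as they mature.

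Promoter sequences of 6 members are shown because they hold the letters by which S phase and mitosis genes are classically told apart. The windows run from 130 bases before to 20 bases from the annotated start of each gene (150 bases) in RefSeq on GRCh38.p14, and the capitals mark an E2F site in the first 3 and a cell cycle homology region (CHR) in the last 3. CDC6 lies at chr17:40287749-40287898 (plus strand), CDT1 at chr16:88803659-88803808 (plus strand), MCM3 at chr6:52284723-52284872 (minus strand), CCNB2 at chr15:59105016-59105165 (plus strand), PLK1 at chr16:23678759-23678908 (plus strand) and CDC20 at chr1:43358851-43359000 (plus strand).
CDC6: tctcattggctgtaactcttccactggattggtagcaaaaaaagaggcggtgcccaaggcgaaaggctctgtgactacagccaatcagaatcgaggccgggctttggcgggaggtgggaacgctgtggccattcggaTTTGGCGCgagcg
CDT1: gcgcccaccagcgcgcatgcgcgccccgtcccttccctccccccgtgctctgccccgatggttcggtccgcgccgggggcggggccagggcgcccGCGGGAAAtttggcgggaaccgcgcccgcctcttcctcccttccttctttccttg
MCM3: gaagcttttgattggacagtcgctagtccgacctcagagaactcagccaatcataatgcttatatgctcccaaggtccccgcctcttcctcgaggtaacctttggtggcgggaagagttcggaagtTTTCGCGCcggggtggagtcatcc
CCNB2: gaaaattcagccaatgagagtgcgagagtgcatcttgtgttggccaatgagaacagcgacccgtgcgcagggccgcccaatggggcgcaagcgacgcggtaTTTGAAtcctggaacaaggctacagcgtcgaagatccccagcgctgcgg
PLK1: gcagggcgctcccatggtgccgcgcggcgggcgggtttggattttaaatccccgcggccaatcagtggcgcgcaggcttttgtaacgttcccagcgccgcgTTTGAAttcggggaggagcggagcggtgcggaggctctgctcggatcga
CDC20: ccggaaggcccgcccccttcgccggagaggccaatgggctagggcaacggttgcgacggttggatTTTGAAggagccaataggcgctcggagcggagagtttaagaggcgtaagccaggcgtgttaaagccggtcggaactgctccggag

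Motifs were searched on both strands in windows of 250 bases before and 50 bases from the start. The E2F site was any of TTTCCCGC, TTTGGCGC, TTTCGCGC and TTTGCCGC, the CHR was TTTGAA or TTCGAA, and the CCAAT box was CCAAT, and none of these motifs contains another. RefSeq promoters were matched for 35 of the 45 members, and those of E2F8, BIRC5, AURKA, CDK2, FOXM1, MCM4, CCNE2, CCND2, CCND1 and MCM5 were not. An E2F site stood in 8 of 9 matched replication genes (MCM2, MCM3, MCM6, MCM7, CDT1, CDC6, TYMS and PCNA) and in 1 of 10 matched mitosis genes (CDK1), against 3.3% of all 34943 promoters. A CHR stood in 7 of 10 mitosis genes (CDC20, CENPF, BUB1, CDK1, BUB1B, CCNB2 and PLK1) and in 1 of 9 replication genes (MCM6), against 16.4% of all promoters. CCAAT boxes were in 8 of 10 mitosis genes and 6 of 9 replication genes, against 34.6% of all promoters. Of the 5 CDK inhibitors, 0 had an E2F site or a CHR and 1 (CDKN1B) had a CCAAT box. These matches describe the letters in the windows and do not show binding. Only the first listed window of each member was searched, and some members had more (4 for CDC25C), so a motif at another start would be missed. The shares of all promoters count every distinct window.

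As a whole, the members were highest at day 0 and lower at every later day in WT cells, and the lines lay farthest apart at days 6 and 10. On the CPM scale (counts relative to library size after TMM scaling), and taken as the median over members of log2 CPM minus the WT day 0 mean, WT libraries stood at -0.87 and -0.84 at day 2, at -1.36 and -1.31 at day 6, and at -2.55 and -2.85 at day 10. NKX2-5 shRNA libraries stood at -3.05 and -2.98 at day 6 and at -2.58 and -2.39 at day 10, so their day 6 level was below both WT libraries of day 10. ZNF503 shRNA libraries stood at -0.54 and -0.5 at day 2, above both WT libraries, and at -2.07 and -2.22 at day 6, below both. At day 2 the NKX2-5 shRNA (-0.81 and -0.87) and ZEB2 shRNA libraries (-0.88 and -0.82) lay close to WT. ZEB2 shRNA libraries stood at -1.12 and -1.23 at day 6 and at -1.66 and -1.49 at day 10, above both WT libraries at each of these days. In bulk RNA, fewer dividing cells and less of these transcripts per cell cannot be told apart.

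**Figure D1:**
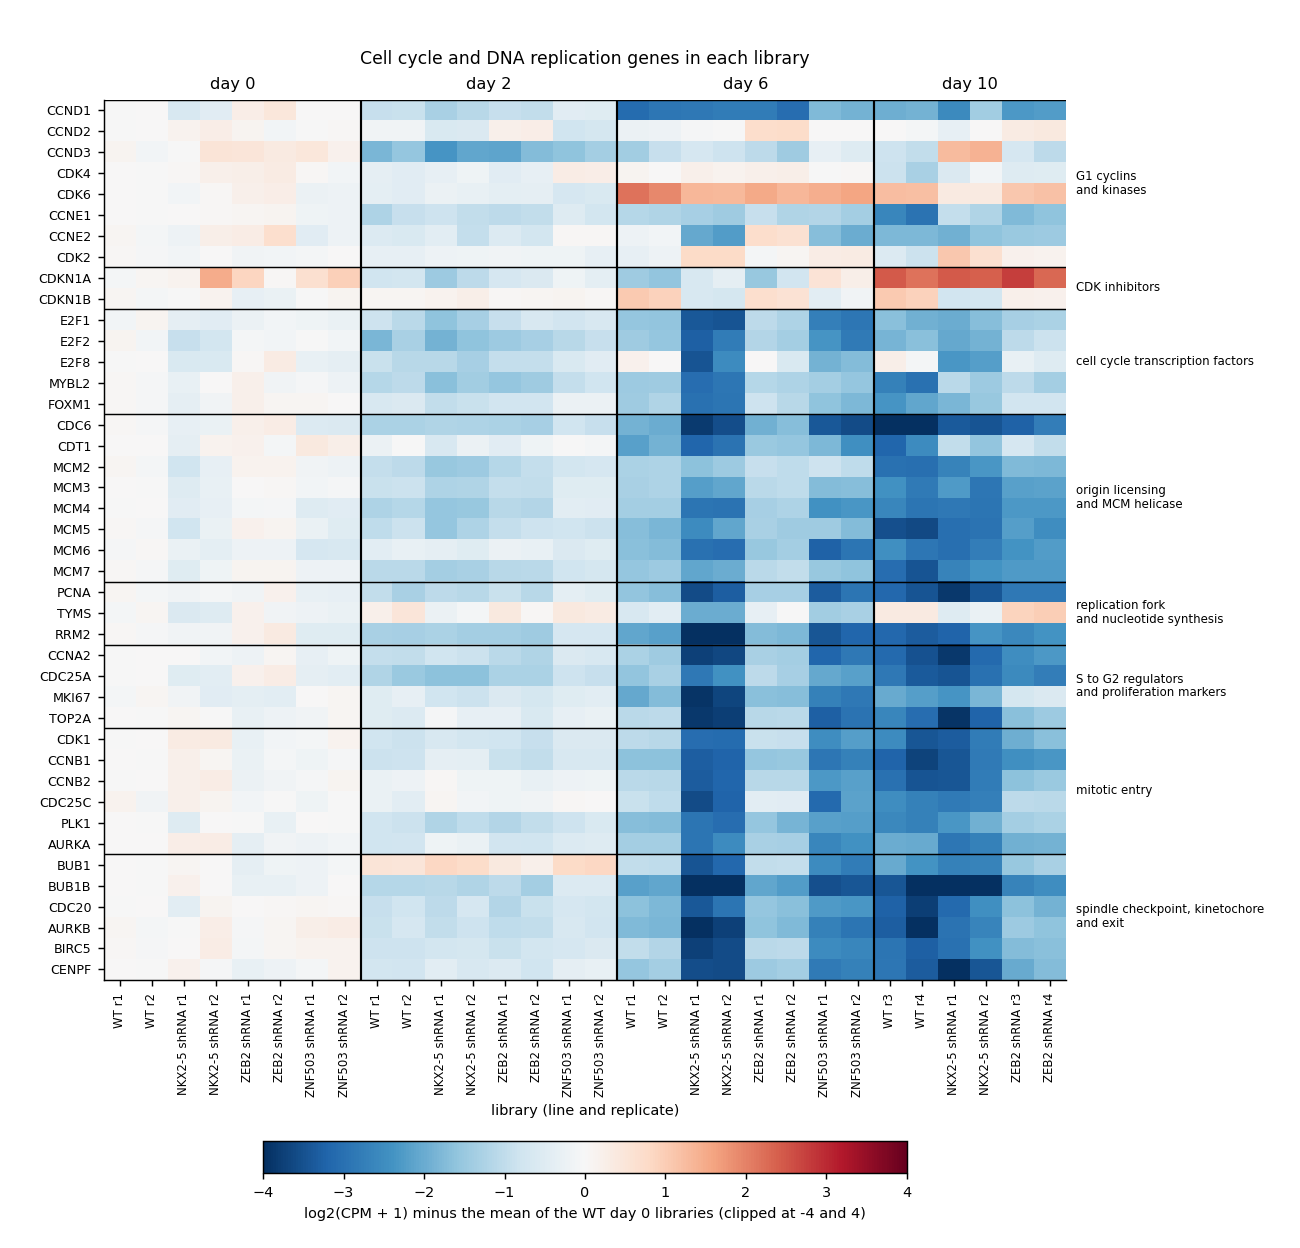
Heat map of 42 members (rows, ordered by role) in 30 libraries (columns, ordered by day, then line and replicate), coloured by log2(CPM + 1) minus the mean of the 2 WT day 0 libraries and limited to 4 on either side. CDKN2A and CDKN2C, with at most 15 counts in any library, and CDKN2B, with 0 counts in some libraries, are left out. The blocks of lowest values among the replication and mitosis genes are the NKX2-5 shRNA libraries at day 6 and the WT and NKX2-5 shRNA libraries at day 10, whereas CDK6 at day 6 and CDKN1A at day 10 lie above the WT day 0 level in WT libraries.

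The spread over groups differed among members. The group means of CDK4 spanned 1.38 on the log2 CPM scale, the least of the 45 genes, followed by CCND2 (1.47), CDK2 (1.58) and CDKN1B (1.77). The widest span was that of CDKN2B (9.52), which was at or near 0 counts in several groups, so that its span depends on the prior count. Those of AURKB, a kinase of the chromosomal passenger complex, spanned 4.83, those of CDC6, which loads the MCM helicase, spanned 4.59, and those of CDKN1A, which encodes p21, spanned 4.52. CDKN2A had 0 to 13 counts per library (at most 0.572 CPM) and CDKN2C had 0 to 15 counts, so neither passed the filter on low counts in a comparison of lines or in WT over time. CDKN2B, which encodes the CDK4 and CDK6 inhibitor p15, had 4 and 8 counts in WT cells at day 0 and 0 in both WT libraries at day 2. It was not tested among the lines at day 2. For 22 members the row used is 1 of several, and it held 16.8% of the gene's counts for AURKA (6 rows), 20.1% for FOXM1 (5 rows) and 25.8% for CDKN1A (4 rows).

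The libraries held 9189588 to 90798116 counts on genes (median 32188818), and 3 counts, the limit that a count of 0 allows, were 0.033 to 0.326 CPM. This limit covers counting error only. The targeted genes were lower than in WT cells: in the NKX2-5 line NKX2-5 was at 1.3% ± 0.243 of WT (SD, n = 2) at day 6 and 1.38% ± 1.26 at day 10, in the ZNF503 line ZNF503 was at 6.98% ± 0.297 at day 6, and in the ZEB2 line ZEB2 was at 58.5% ± 1.83 at day 6 and 49.5% ± 0.00656 at day 10. Targets also differed in the other lines at day 6: NKX2-5 was at 3.69% of WT in the ZNF503 line and 53.5% in the ZEB2 line, ZNF503 was at 8.26% in the NKX2-5 line and 138% in the ZEB2 line, and ZEB2 was at 12.4% in the ZNF503 line and 21.5% in the NKX2-5 line, both lower than in the ZEB2 line itself. At day 10 NKX2-5 was at 22.2% and ZNF503 at 322% of WT in the ZEB2 line. In the NKX2-5 line ZEB2 was at 93.9% ± 51.0 and ZNF503 at 109% ± 85.8 of WT at day 10. Target levels at days 0 and 2 are not given here. The cell mixture moved with the lines too. The summed CPM of 7 CM markers was 9760 to 12300 in WT, 54.1 to 70.1 in NKX2-5 shRNA, 219 to 290 in ZNF503 shRNA and 5390 to 5820 in ZEB2 shRNA cells at day 6, and the sum of 7 endoderm and hepatic markers was 334 to 678, 3170 to 3270, 2410 to 2550 and 318 to 447 in the same order. At day 10 the CM sum was 14600 to 17800 in WT, 109 to 416 in NKX2-5 shRNA and 4060 to 5900 in ZEB2 shRNA cells, the endoderm and hepatic sum was 1460 to 3600, 27000 to 38300 and 6440 to 7810, and the sum of 3 fibroblast markers was 814 to 1150, 2440 to 4420 and 4590 to 5240. All of these markers had more than 3 counts in some library of each group named. The sum of 5 pluripotency markers was 4330 to 4460 in WT cells at day 0, and at day 10 it was 130 to 151 in WT, 219 to 319 in NKX2-5 shRNA and 233 to 241 in ZEB2 shRNA cells. The part of these mixtures in the results below was not tested.

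In WT cells the replication and mitosis genes fell from day 0 to day 10 while 3 CDK inhibitors rose. The day 10 libraries carry other replicate numbers than the earlier ones, so time and library making cannot be separated there. At 5% false discovery rate (FDR) by edgeR's quasi-likelihood test, 2 of 43 tested members were higher and 34 were lower at day 2 than at day 0 (21.0% and 23.1% of all genes tested), with a median difference of -0.81 on the log2 scale against -0.01 over all genes. The 34 include CDKN2B, for which no fold is given since both day 2 libraries had 0 counts. At day 6, 3 were higher and 35 lower (31.3% and 29.6% of all genes), with a median of -1.33. At day 10, 5 were higher and 36 lower (39.1% and 34.7% of all genes), with a median of -2.68 against 0.1 over all genes. From day 6 to day 10 alone, 5 were higher and 32 lower (28.3% and 29.2% of all genes), with a median of -1.32.

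All 8 licensing genes fell between day 0 and day 10 in WT cells, with a median of -3.02. CDC6 was at 217 and 201 CPM at day 0, 86.2 and 85.5 at day 2, 55.0 and 52.2 at day 6, and 11.2 and 9.25 at day 10. No library of a later day reached one of an earlier day, and the day 10 difference of -4.27 ± 0.13 (log2, SE, adjusted p = 1.9e-09) was the lowest of the 43 tested members. MCM2, a subunit of the helicase, was at 177 and 162 CPM at day 0 and 20.5 and 20.0 at day 10, MCM3 at 429 and 425 CPM and then 78.7 and 59.1, and MCM5 at 209 and 194 CPM and then 16.8 and 15.7 (-3.57 ± 0.12). All 3 subunits were far lower in each day 10 library. CDT1, the partner of CDC6 in loading the helicase, took its largest step later, from 36.7 and 43.1 CPM at day 2 to 8.97 and 10.9 at day 6, when it was 2.10 lower than at day 0 on the log2 scale (-2.10 ± 0.21, adjusted p = 1.3e-05). The sliding clamp PCNA went from 379 and 346 CPM at day 0 to 40.3 and 32.3 at day 10, and RRM2, a subunit of ribonucleotide reductase, from 185 and 177 to 19.5 and 17.0 (-2.12 ± 0.11 at day 6, adjusted p = 8.8e-08). From day 6 to day 10 CDC6 had the largest fall of all members (-2.33 ± 0.12, adjusted p = 8.0e-07).

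TYMS, the thymidylate synthase, did not follow its neighbours in the pathway. It was at 28.9 and 32.8 CPM at day 0, 35.3 and 43.5 at day 2, 19.6 and 22.8 at day 6, and 39.8 and 39.8 at day 10. Both day 10 libraries stood above both day 0 libraries, and the difference was 0.43 ± 0.15 (adjusted p = 0.0229). Its day 2 difference of 0.40 ± 0.15 (adjusted p = 0.0485) passed only narrowly and was lost without either day 0 library or without the second day 2 library.

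Of the mitotic genes, all 6 of mitotic entry and all 6 of the spindle group fell from day 0 to day 10, with medians of -2.77 and -3.29. AURKB was at 82.3 and 73.7 CPM at day 0, 22.0 and 21.4 at day 6, and 6.96 and 3.12 at day 10 (-3.80 ± 0.25 against day 0, adjusted p = 4.0e-07). BUB1B, a checkpoint kinase-like protein, was at 432 and 428 CPM at day 0 and 39.6 and 26.0 at day 10 (-3.63 ± 0.17, adjusted p = 2.8e-08). The groups of both genes were apart at each of these days. Its relative BUB1, the checkpoint kinase, first went up, from 272 and 267 CPM at day 0 to 389 and 380 at day 2 (0.56 ± 0.11, adjusted p = 0.00276), and was at 65.2 and 50.8 at day 10. PLK1, a kinase of mitotic entry, was at 72.0 and 71.7 CPM at day 0 and 11.2 and 10.2 at day 10. From day 6 to day 10, CCNB2, a mitotic cyclin, fell from 61.9 and 60.0 to 15.6 and 11.0 CPM (-2.13 ± 0.14, adjusted p = 2.8e-06) and BIRC5, which encodes survivin, from 72.3 and 63.7 to 18.2 and 14.1 (-2.02 ± 0.14, adjusted p = 2.7e-06). In both genes the 2 days were apart. CCNA2, the cyclin of S and G2, went from 309 and 317 CPM at day 0 to 35.1 and 27.3 at day 10, and CDC25A, a phosphatase that activates CDK2, from 125 and 127 to 16.4 and 11.4. The proliferation marker MKI67 was at 411 and 449 CPM at day 0, 103 and 128 at day 6, and 105 and 91.6 at day 10, and its groups of days 6 and 10 overlapped (-0.20 ± 0.12 from day 6 to day 10, adjusted p = 0.19).

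**Figure D2:**
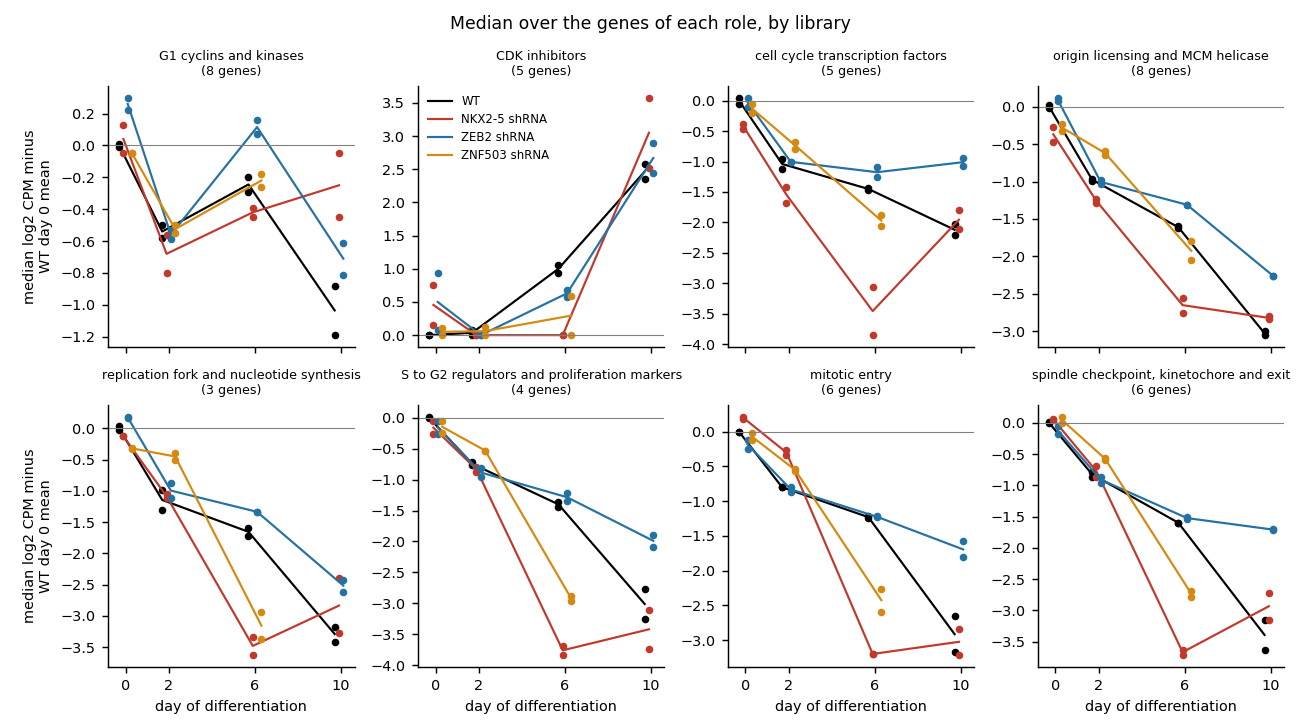
Median log2 CPM of the members of each of 8 roles minus the WT day 0 mean, by day of differentiation, with 1 point per library and lines through the group means. In WT the spindle and licensing panels step down at each later day, the NKX2-5 shRNA libraries lie below WT at day 6, and the ZEB2 shRNA libraries lie above WT at day 10 in these panels.

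The transcription factors split in WT cells. E2F1, an activator of S phase genes, was at 32.1 and 37.8 CPM at day 0, 19.0 and 16.1 at day 2, 11.2 and 11.0 at day 6, and 10.3 and 8.5 at day 10. E2F8, a repressor of the E2F family, was at 22.5 and 23.4 CPM at day 0, 11.8 and 10.2 at day 2, 26.0 and 23.0 at day 6, and 26.9 and 21.7 at day 10. Its day 10 libraries lay on either side of the day 0 libraries (0.15 ± 0.16, not called). E2F2, another activator, was at 13.3 and 11.3 CPM at day 0 and 2.7 and 4.35 at day 2 (-1.79 ± 0.27, adjusted p = 4.9e-04). FOXM1 was at 79.2 and 73.8 CPM at day 0 and 14.2 and 17.2 at day 10, with the groups apart.

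Among the G1 genes, the D-type cyclins and their kinases each took their own course. CCND1 was at 255 and 259 CPM at day 0, 29.6 and 34.1 at day 6, and 65.6 and 68.9 at day 10. Its low point was at day 6 (-2.98 ± 0.11 against day 0, adjusted p = 8.5e-09), and it rose from day 6 to day 10 (1.11 ± 0.10, adjusted p = 1.8e-05). CCND2 stayed between 417 and 504 CPM in all WT libraries of the 4 days, with a day 10 difference of 0.03 ± 0.09 that was not called. CCND3 was at 19.1 and 16.6 CPM at day 0 and 4.25 and 5.4 at day 2 (-1.86 ± 0.23, adjusted p = 1.4e-04). Its value comes from 1 of 4 rows of the gene, which held 27.4% of the counts summed over those rows. CDK6, the partner kinase of these cyclins, rose from 190 and 188 CPM at day 0 to 852 and 714 at day 6 (2.08 ± 0.11, adjusted p = 1.4e-07) and was at 449 and 438 at day 10 (1.29 ± 0.11, adjusted p = 2.1e-06).

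Of the CDK inhibitors in WT cells, CDKN1B was higher from day 6 on and CDKN1A and CDKN2B rose from day 6 to day 10, while CDKN2A and CDKN2C were not tested. CDKN1A was at 7.39 and 8.5 CPM at day 0, 4.12 and 4.42 at day 2, 2.34 and 2.02 at day 6, and 47.6 and 38.8 at day 10. It was lowest at day 6 (-1.85 ± 0.20 against day 0) and then rose by 4.35 ± 0.21 on the log2 scale to day 10 (adjusted p = 4.6e-07), the highest of the day 6 to day 10 differences of the tested members. CDKN1B, which encodes p27, was at 44.1 and 39.9 CPM at day 0, 87.3 and 80.5 at day 6, and 88.5 and 80.3 at day 10 (1.07 ± 0.11 against day 0). At day 10 CDKN1A stood 2.50 ± 0.18 above day 0 (adjusted p = 7.4e-07). CDKN2B was at 1.43 and 2.6 CPM at day 6 and 8.86 and 5.48 at day 10 (1.86 ± 0.41, adjusted p = 0.00402). Its groups of days 6 and 10 did not overlap. Against day 0, with 4 and 8 counts there, it was higher by 3.68 ± 0.54 at day 6 (adjusted p = 3.1e-04) and by 5.54 ± 0.53 at day 10 (adjusted p = 1.1e-05).

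Most of the other replication and mitosis genes also fell in WT cells. Of 41 other replication genes tested, 1 was higher and 30 lower at day 2, 0 and 37 at day 6, and 0 and 41 at day 10 against day 0, with a median of -2.14 at day 10. ORC1, a subunit of the origin recognition complex, stood 4.77 lower on the log2 scale at day 10 (-4.77 ± 0.17). Of 40 other mitosis genes, 0 were higher and 39 lower at day 10, with a median of -2.76, and HMMR, a spindle protein, was among the lowest (-3.92 ± 0.15). Of 16 RB family, E2F and DREAM genes, 4 were higher and 10 lower at day 10, and of 16 targets of p53, 8 were higher and 4 lower, beside 39.1% higher and 34.7% lower over all genes.

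**Figure D3:**
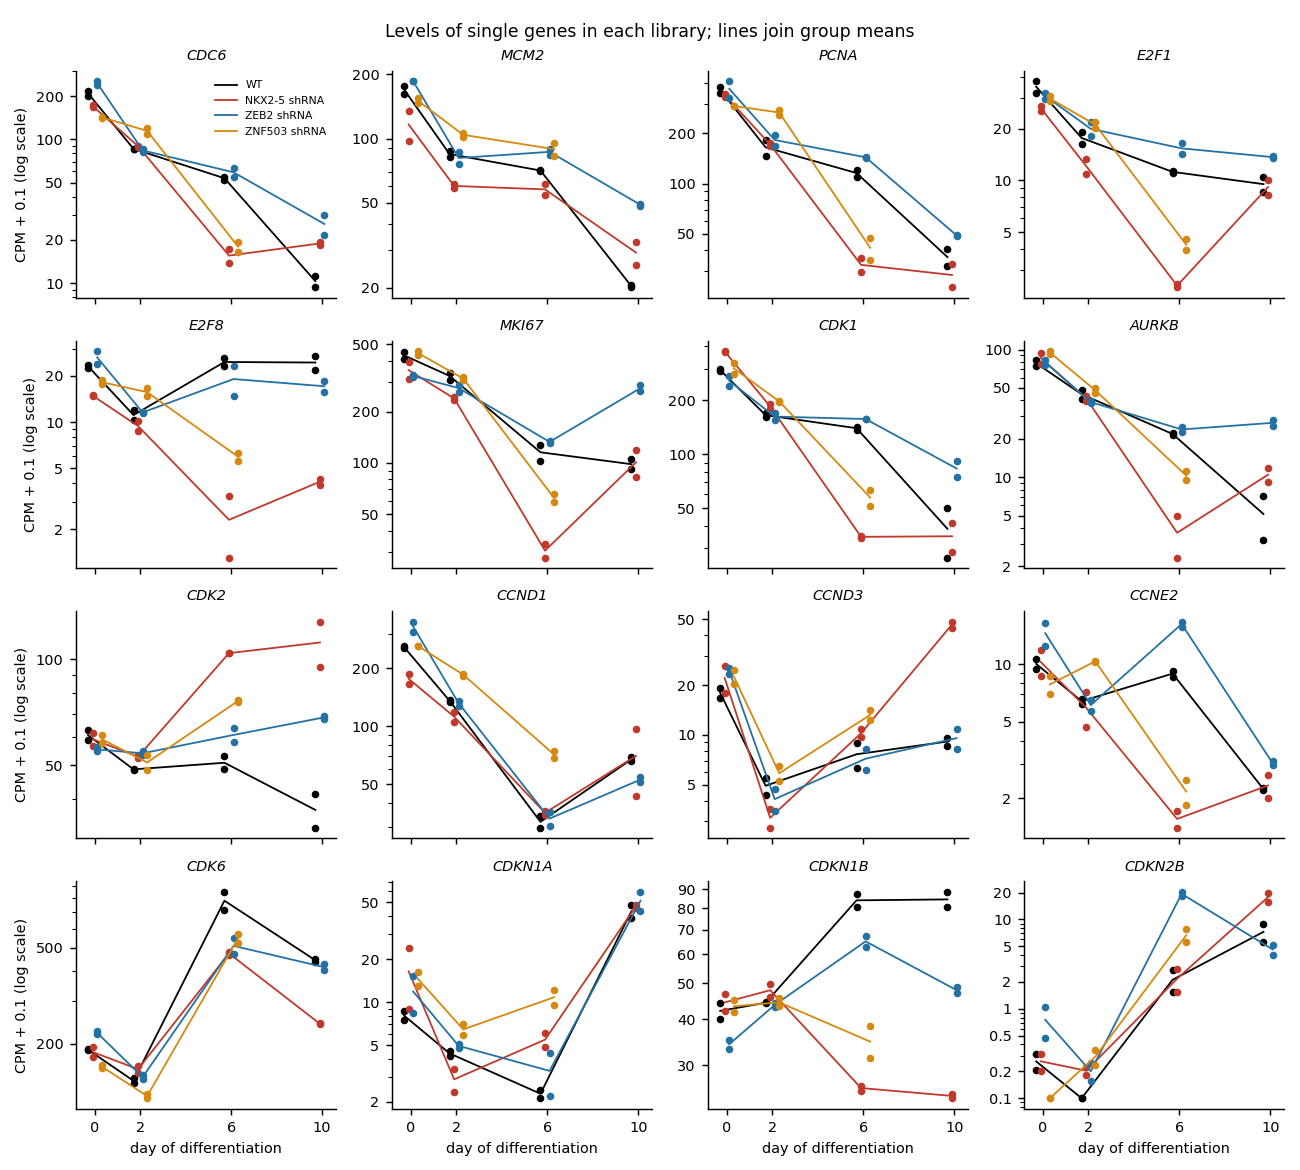
CPM + 0.1 on a log axis for 16 members by day, 1 point per library, coloured by line. CDKN1A in WT drops to 2.34 and 2.02 CPM at day 6 and reaches 47.6 and 38.8 at day 10, CDK2 in NKX2-5 shRNA cells lies above WT at days 6 and 10, and CCND3 in NKX2-5 shRNA cells lies above the others at day 10.

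Before differentiation, NKX2-5 shRNA cells had slightly lower levels of licensing genes than WT cells. Of 43 tested members, 1 was higher and 13 were lower (8.22% and 7.64% of all genes tested), with a median of -0.06 against 0.0 over all genes. The 13 included 7 of 8 licensing genes (median -0.38) and 3 of 5 transcription factors (median -0.43). MCM2 was at 97.4 and 135 CPM in NKX2-5 shRNA against 177 and 162 in WT cells (-0.57 ± 0.13), E2F2 at 6.06 and 6.95 against 13.3 and 11.3 (-0.94 ± 0.15, adjusted p = 0.00261), and CCND1 at 165 and 187 against 255 and 259 (-0.56 ± 0.09). The groups of these 3 genes did not overlap. E2F8 was at 14.8 and 14.7 CPM against 22.5 and 23.4 (-0.65 ± 0.13, adjusted p = 0.0066), and TYMS at 20.2 and 21.0 against 28.9 and 32.8 (-0.60 ± 0.13, adjusted p = 0.0114). Without either WT library E2F8 lost its call, and without WT replicate 2 TYMS did. CDK1, the kinase of mitotic entry, was the higher gene, at 374 and 376 CPM against 293 and 298 (0.33 ± 0.09, adjusted p = 0.0338), a call lost without NKX2-5 shRNA replicate 2 or either WT library. The count of 14 rested on the WT libraries: it was 3 without WT replicate 1 and 2 without WT replicate 2. Of the other replication genes, 0 of 41 were higher and 10 lower, among them LIG1, the ligase of lagging strand DNA (-0.66 ± 0.16).

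ZNF503 shRNA cells at day 0 had 0 members higher and 5 lower of 43 tested (3.99% and 3.51% of all genes), with a median of -0.11. They were MCM6 (218 and 222 CPM against 333 and 359 in WT, -0.66 ± 0.09, adjusted p = 0.00165), CDC6 (144 and 141 against 217 and 201, -0.56 ± 0.09, adjusted p = 0.00448), MCM4 (-0.49 ± 0.08), RRM2 (-0.49 ± 0.09) and CDC25A (-0.39 ± 0.09). The 2 groups were apart for MCM6 and CDC6. The count fell to 1 without ZNF503 shRNA replicate 1, 0 without its replicate 2, 1 without WT replicate 1 and 2 without WT replicate 2. In ZEB2 shRNA cells 0 members were higher and 1 was lower (2.48% and 1.46% of all genes): MKI67, at 330 and 320 CPM against 411 and 449 (-0.43 ± 0.11, adjusted p = 0.0441). That call was lost without any of the 4 libraries, and without TMM scaling the split was 1 higher and 0 lower. These comparisons share the WT libraries.

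At day 2 most called members were higher in ZNF503 shRNA cells and lower in NKX2-5 shRNA cells than in WT cells. In ZNF503 shRNA cells 17 of 42 tested members were higher and 2 lower (13.1% and 13.7% of all genes), with a median of 0.22 against -0.01 over all genes, and the higher genes came from every role but the inhibitors. MCM4 was at 440 and 426 CPM against 251 and 266 in WT cells (0.69 ± 0.07, adjusted p = 7.6e-06), and the groups were apart. CDK4, the partner of D-type cyclins, was at 165 and 159 CPM against 103 and 96.1 (0.64 ± 0.09, adjusted p = 1.4e-04), and PCNA at 275 and 256 against 183 and 146 (0.63 ± 0.10, adjusted p = 2.9e-04). Both genes were higher in each ZNF503 shRNA library than in either WT library. CCNE2, a cyclin of CDK2, stood at 0.64 ± 0.21 (adjusted p = 0.033), a call lost without any of the 4 libraries. The lower genes were CCND2, at 287 and 303 CPM against 453 and 454 (-0.67 ± 0.08, adjusted p = 1.3e-05), and CDK6 (-0.26 ± 0.08, adjusted p = 0.0268). Of 41 other replication genes 23 were higher and 1 lower, and of 40 other mitosis genes 17 were higher and 0 lower. The count of 19 members was 12 without ZNF503 shRNA replicate 1 and 10 without either WT library, and the CDK6 call was lost in each of these 3 cases.

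NKX2-5 shRNA cells at day 2 had 5 members higher and 13 lower of 42 tested (13.0% and 13.6% of all genes), and the split ran by role. Mitotic entry had 3 higher and 0 lower (median 0.23), whereas licensing had 0 higher and 5 lower (median -0.36) and the transcription factors 0 higher and 3 lower (median -0.38). AURKA, a centrosome kinase, was at 130 and 123 CPM against 84.5 and 87.3 in WT cells (0.52 ± 0.09, adjusted p = 6.1e-04), and CCNB1, the cyclin partner of CDK1, at 428 and 419 against 299 and 306 (0.45 ± 0.07, adjusted p = 4.5e-04). MCM2 was at 58.8 and 61.0 CPM against 87.4 and 81.6 (-0.53 ± 0.10, adjusted p = 0.00171). The 2 groups did not overlap for these 3 genes. CDC25C, which activates CDK1, stood at 0.31 ± 0.10 (adjusted p = 0.0337), E2F1 was at 10.8 and 13.2 CPM against 19.0 and 16.1 (-0.59 ± 0.16, adjusted p = 0.0158), and TYMS stood at -0.54 ± 0.14 (adjusted p = 0.0122). All 3 lost their calls without NKX2-5 shRNA replicate 1, E2F1 and CDC25C also without WT replicate 1, and CDC25C and TYMS also without WT replicate 2. Of the other mitosis genes, PRC1, a protein of the central spindle, was higher (0.54 ± 0.08) but ESPL1 was lower (-0.84 ± 0.11). Of the other replication genes, POLE, a leading strand polymerase subunit, was lower (-0.99 ± 0.09) but ORC3 was higher (0.35 ± 0.1). Both wider lists thus held called genes in both directions. The split was 2 higher and 18 lower without TMM scaling, and the count of 18 was 7 without NKX2-5 shRNA replicate 1, 11 without WT replicate 1 and 9 without WT replicate 2. In ZEB2 shRNA cells at day 2, 0 of 42 members were called in either direction by edgeR (0.206% higher and 0.285% lower over all genes), and DESeq2 called 1. An unadjusted edgeR p under 0.05 was found for 8 members. The share of all genes at that threshold is not given, so no excess can be read from it.

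At day 6 the replication and mitosis genes were lower in NKX2-5 shRNA cells than in WT cells in every role but the G1 genes and the inhibitors. Of 43 tested members, 2 were higher and 35 lower (24.5% and 24.7% of all genes tested), with a median of -1.61 against 0.0 over all genes. All 5 transcription factors (median -2.26), all 8 licensing genes (-1.03), all 3 fork genes (-1.83), all 4 S to G2 genes (-2.17), all 6 mitotic entry genes (-1.82) and all 6 spindle genes (-2.29) were lower. Leaving out any 1 of the 4 libraries gave 35 or 36 calls in place of 37.

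The median of the licensing genes was the nearest to 0 of these roles, and their sizes varied. CDC6 was at 13.8 and 17.1 CPM in NKX2-5 shRNA against 55.0 and 52.2 in WT cells (-1.79 ± 0.16), and MCM4 at 75.9 and 74.6 against 229 and 228. MCM2 was at 54.1 and 61.3 CPM against 70.4 and 71.1 (-0.30 ± 0.12, adjusted p = 0.049), the smallest called difference. Each gene was lower in both NKX2-5 shRNA libraries than in either WT library. PCNA was at 29.4 and 35.8 CPM against 121 and 110, RRM2 at 9.34 and 10.5 against 42.1 and 39.7, and TYMS at 7.02 and 7.01 against 19.6 and 22.8.

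E2F8 had the lowest difference of all members in this comparison. It was at 1.21 and 3.21 CPM in NKX2-5 shRNA against 26.0 and 23.0 in WT cells (-3.41 ± 0.34, adjusted p = 5.4e-06), and the groups were far apart. E2F1 was at 2.39 and 2.28 CPM against 11.2 and 11.0, and MYBL2, a factor for mitotic genes, at 14.4 and 16.4 against 45.8 and 47.0. TOP2A, the topoisomerase that untangles chromosomes, was at 95.8 and 102 CPM against 666 and 672 (-2.76 ± 0.13, adjusted p = 6.2e-09), and MKI67 at 27.6 and 33.1 against 103 and 128. Among mitotic genes, CDC25C, the phosphatase that activates CDK1, was at 2.9 and 4.07 CPM against 24.2 and 21.9 (-2.71 ± 0.29, adjusted p = 9.9e-06), and BIRC5 at 9.93 and 11.2 against 72.3 and 63.7 (-2.69 ± 0.14, adjusted p = 1.8e-08). CDK1 was at 35.0 and 34.3 CPM against 143 and 137, and AURKB at 2.24 and 4.89 against 22.0 and 21.4 (-2.57 ± 0.27). For all of these the 2 groups did not overlap.

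The G1 genes and inhibitors held the exceptions. CDK2, the S phase kinase, was at 104 and 104 CPM in NKX2-5 shRNA against 48.5 and 52.8 in WT cells (1.03 ± 0.11, adjusted p = 9.7e-06), higher in both libraries. Its cyclin CCNE2 was at 1.62 and 1.3 CPM against 8.5 and 9.17 (-2.62 ± 0.24), while CCNE1, the related cyclin, was at 20.8 and 19.5 against 23.9 and 22.6. CDKN1A was at 4.74 and 5.97 CPM against 2.34 and 2.02 (1.30 ± 0.32, adjusted p = 0.00518), and CDKN1B at 26.3 and 25.5 against 87.3 and 80.5 (-1.70 ± 0.13, adjusted p = 6.0e-07). Thus 1 inhibitor was higher than in WT cells and another was lower, and in neither gene did the groups overlap. Of the other cyclins and inhibitors, CDKN1C, which encodes p57, was higher than in WT cells (3.14 ± 0.19). The higher CDK2 level was not particular to this line. At day 6 CDK2 was also above both WT libraries in ZNF503 shRNA (75.4 and 76.6 CPM) and ZEB2 shRNA cells (58.0 and 63.6, not called). At day 10 it was at 68.8 and 67.7 CPM in ZEB2 shRNA against 41.3 and 33.0 in WT cells.

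Of 41 other replication genes, 0 were higher and 35 lower in NKX2-5 shRNA cells at day 6 (median -0.96), with CDC45, a part of the active helicase, at -2.50 ± 0.32. Of 40 other mitosis genes, 1 was higher and 37 lower (median -2.17), and the lowest values included CDKN3 (-3.06 ± 0.31). The higher one was CENPA, the histone H3 variant of centromeres (1.97 ± 0.14). Of 16 targets of p53, 8 were higher and 3 lower, beside 24.5% and 24.7% over all genes.

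In ZNF503 shRNA cells at day 6 most of the replication and mitosis genes were also lower than in WT cells. Of 43 tested members, 6 were higher and 30 lower than in WT cells (27.2% and 28.5% of all genes), with a median of -1.04 against -0.03 over all genes. All 3 fork genes (median -1.23), all 4 S to G2 genes (-1.31), all 6 mitotic entry genes (-1.20) and all 6 spindle genes (-1.34) were lower. Of 8 licensing genes only 4 were lower, and 1 was higher. The count was 32 to 34 without any 1 of the 4 libraries.

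MCM2 was that gene, at 95.2 and 83.0 CPM in ZNF503 shRNA against 70.4 and 71.1 in WT cells (0.33 ± 0.12, adjusted p = 0.0305), with the groups apart. MCM5, CDT1 and MCM7 were at 0.20 ± 0.15, -0.07 ± 0.24 and -0.07 ± 0.11 and were not called. MCM6 was at 35.9 and 44.7 CPM against 108 and 103, and CDC6 at 19.2 and 16.5 against 55.0 and 52.2. MYBL2 was at 48.9 and 42.5 CPM against 45.8 and 47.0 (-0.03 ± 0.13, not called), with overlapping groups, whereas E2F8 was at 5.49 and 6.2 against 26.0 and 23.0 (-2.07 ± 0.33, adjusted p = 2.1e-04). TOP2A was at 145 and 181 CPM against 666 and 672 (-2.04 ± 0.12, adjusted p = 9.6e-08). Of the G1 genes, CCND1 was at 74.3 and 68.1 CPM against 29.6 and 34.1 (1.15 ± 0.13, adjusted p = 1.9e-05) and CCNE2 at 2.39 and 1.74 against 8.5 and 9.17 (-2.11 ± 0.24, adjusted p = 1.8e-05). CDKN1A was at 12.0 and 9.44 CPM against 2.34 and 2.02 (2.30 ± 0.33, adjusted p = 9.6e-05), CDKN2B at 7.68 and 5.43 against 1.43 and 2.6 (1.65 ± 0.34, adjusted p = 0.00136), and CDKN1B at 31.2 and 38.1 against 87.3 and 80.5 (-1.28 ± 0.13). For each of these called genes the 2 groups were apart. Of the other genes, 0 of 41 replication genes were higher and 32 lower, and 1 of 40 mitosis genes, CENPA (1.67 ± 0.14), was higher and 33 lower.

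**Figure D4:**
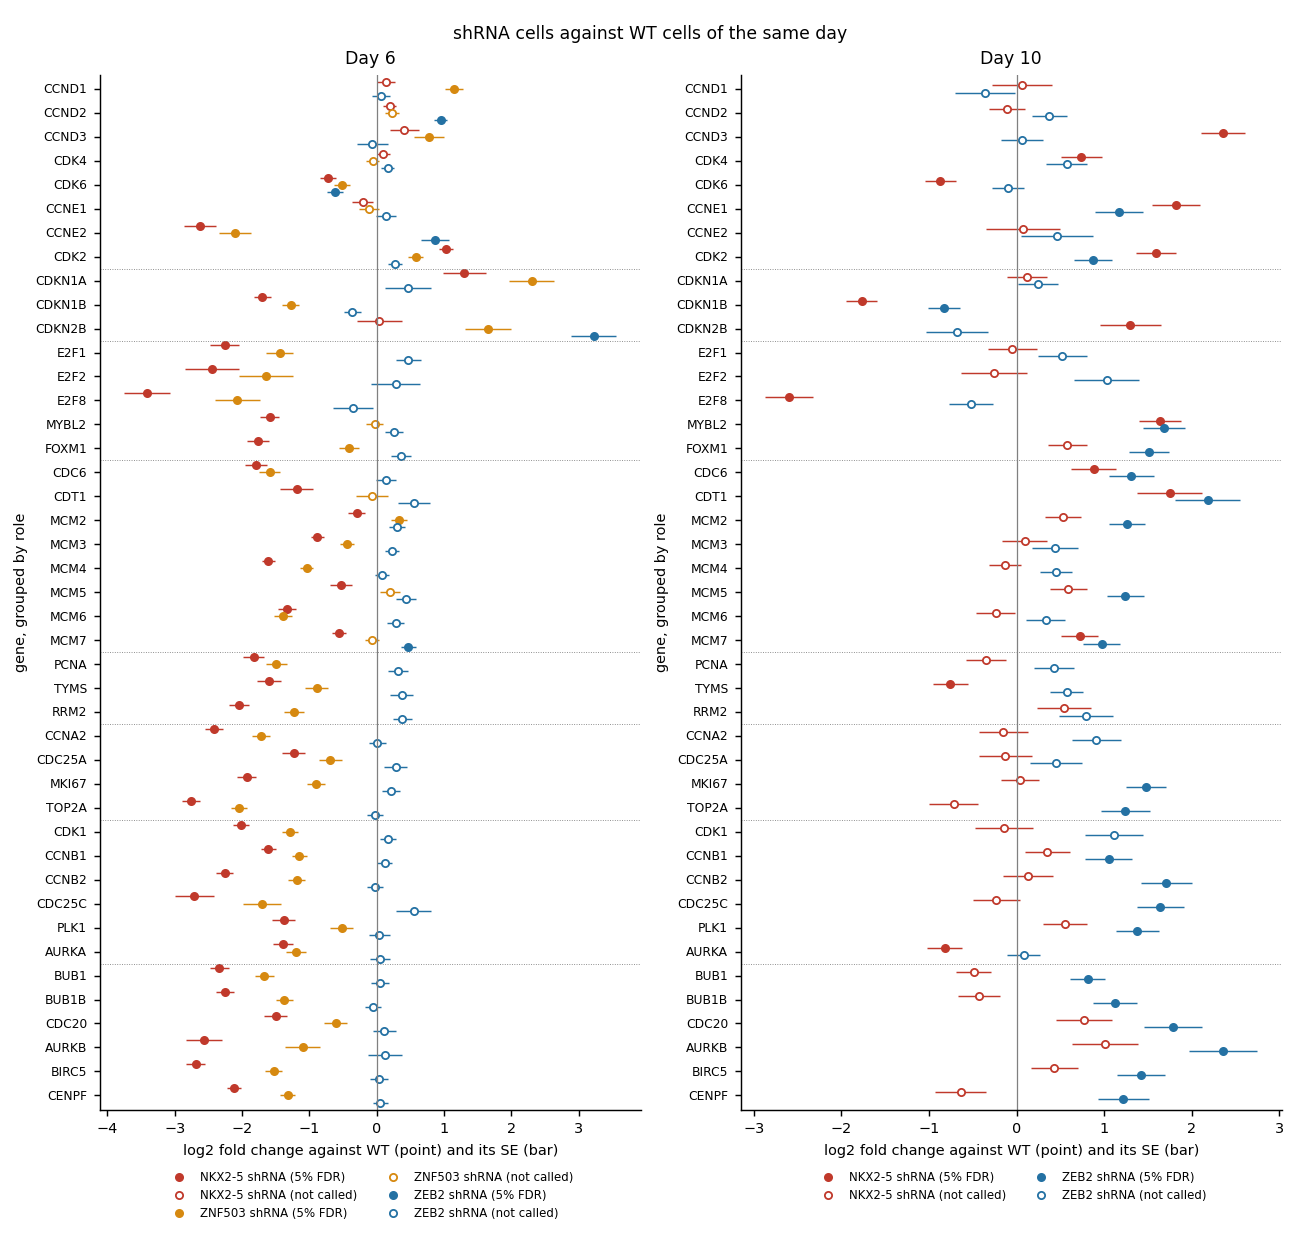
Log2 difference from WT with its SE for 43 members at day 6 (NKX2-5, ZNF503 and ZEB2 shRNA cells) and at day 10 (NKX2-5 and ZEB2 shRNA cells), with filled points at 5% FDR. At day 6 the NKX2-5 shRNA points of E2F8 (-3.41) and TOP2A (-2.76) lie farthest to the left, and at day 10 most ZEB2 shRNA points lie to the right of 0, with AURKB at 2.36.

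The direct comparison of the 2 lines at day 6, which does not use WT libraries in the difference, had 1 member higher and 29 lower in NKX2-5 shRNA than in ZNF503 shRNA cells (5.91% and 8.8% of all genes), with a median of -0.72. MYBL2 was at 14.4 and 16.4 CPM in NKX2-5 shRNA against 48.9 and 42.5 in ZNF503 shRNA cells (-1.57 ± 0.14, adjusted p = 5.3e-05), and AURKB at 2.24 and 4.89 against 11.0 and 9.36 (-1.47 ± 0.27, adjusted p = 0.0046). CDK2 was the higher gene, at 104 and 104 CPM against 75.4 and 76.6 (0.45 ± 0.11, adjusted p = 0.0185). CDKN2B was at 1.43 and 2.72 CPM against 7.68 and 5.43 (-1.61 ± 0.33, adjusted p = 0.00767). The 2 lines did not overlap for these 4 genes, and the spindle group was lower for all 6 of its genes. The count of 30 was 13 without NKX2-5 shRNA replicate 1, when CDK2 and CDKN2B lost their calls. CDK2 also lost it without NKX2-5 shRNA replicate 2, and CDK2, CDKN2B and AURKB did so without ZNF503 shRNA replicate 1. The CM marker sums were low in both lines, at 54.1 to 70.1 CPM against 219 to 290.

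In ZEB2 shRNA cells at day 6 few members were called. Of 43 tested members, 4 were higher and 1 lower (5.67% and 5.33% of all genes), with a median of 0.17 against 0.01 over all genes. CDKN2B was at 20.3 and 18.2 CPM in ZEB2 shRNA against 1.43 and 2.6 in WT cells (3.22 ± 0.34, adjusted p = 6.3e-05). CCND2 was at 799 and 830 CPM against 417 and 430 (0.95 ± 0.10, adjusted p = 6.3e-05), CCNE2 at 16.6 and 15.6 against 8.5 and 9.17 (0.87 ± 0.21, adjusted p = 0.0197), and MCM7 at 182 and 196 against 132 and 142 (0.47 ± 0.11, adjusted p = 0.0123). The lower gene was CDK6, at 547 and 471 CPM against 852 and 714 (-0.62 ± 0.12, adjusted p = 0.00546). None of these 5 genes had overlapping groups. The count of 5 was 2 without ZEB2 shRNA replicate 2 and 3 without WT replicate 1. CCNE2 lost its call without any of the 4 libraries and CDK6 without ZEB2 shRNA replicate 2. No mitotic member was called, and TOP2A was at 643 and 665 CPM against 666 and 672. The sum of 4 mesendoderm markers was 171 to 187 CPM in ZEB2 shRNA and 12.6 to 13.4 in WT cells, and its part in these differences was not tested.

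At day 10, when WT levels were low, the members of NKX2-5 shRNA cells were spread around those of WT cells. Of 43 tested members, 9 were higher and 5 lower (23.3% and 20.6% of all genes), with a median of 0.07 against 0.03 over all genes. Of the 9 higher genes 4 were G1 genes and 3 were licensing genes. CCND3 was at 44.3 and 48.3 CPM in NKX2-5 shRNA against 9.53 and 8.5 in WT cells (2.36 ± 0.25, adjusted p = 6.3e-04), CCNE1 at 27.2 and 22.5 against 7.99 and 6.02 (1.82 ± 0.27, adjusted p = 0.00211), and CDK2 at 128 and 95.1 against 41.3 and 33.0 (1.59 ± 0.23). In all 3 both NKX2-5 shRNA libraries were above both WT libraries. CDT1 was at 21.3 and 14.0 CPM against 3.92 and 6.77 (1.75 ± 0.37, adjusted p = 0.00826), CDC6 at 19.3 and 18.3 against 11.2 and 9.25 (0.88 ± 0.26), and MYBL2 at 59.7 and 46.2 against 18.7 and 15.3 (1.64 ± 0.24). CDKN2B was at 19.9 and 15.5 CPM against 8.86 and 5.48 (1.30 ± 0.35), and CDK4 and MCM7 were at 0.74 ± 0.23 and 0.72 ± 0.21.

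The 5 lower genes came from 5 roles. E2F8 was at 3.82 and 4.16 CPM in NKX2-5 shRNA against 26.9 and 21.7 in WT cells (-2.60 ± 0.27, adjusted p = 6.0e-04), and CDKN1B at 24.3 and 25.0 against 88.5 and 80.3 (-1.77 ± 0.18, adjusted p = 6.1e-04). Both were also lower at day 6, and the groups were apart at each day. CDK6 was at 241 and 243 CPM against 449 and 438 (-0.87 ± 0.18, adjusted p = 0.00754), AURKA at 19.1 and 22.1 against 37.0 and 35.8 (-0.82 ± 0.20), and TYMS at 21.2 and 25.7 against 39.8 and 39.8 (-0.76 ± 0.20). CDKN1A was at 48.1 and 45.7 CPM against 47.6 and 38.8, with overlapping groups. Of the spindle group 0 of 6 genes were called (median 0.0, 0.07 for all members). Of 41 other replication genes 8 were higher and 6 lower, and of 40 other mitosis genes 8 were higher and 1 lower. Over all genes 23.3% were higher and 20.6% lower, so neither list had more calls than genes in general. The count of 14 members was 23 without NKX2-5 shRNA replicate 1 and 8 without WT replicate 4, and the median over members was -0.1 to 0.28 without any 1 library, a range that spans 0. The CDT1 call was lost without WT replicate 3. The sum of 6 blood markers was 1420 to 1630 CPM in NKX2-5 shRNA and 13.4 to 64.3 in WT cells.

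In ZEB2 shRNA cells at day 10 the mitotic genes were higher than in WT cells. Of 43 tested members, 21 were higher and 1 lower (10.5% and 7.68% of all genes), with a median of 0.91 against 0.03 over all genes. The 21 included all 6 spindle genes (median 1.32), 4 of 6 mitotic entry genes (1.24), 5 of 8 licensing genes (1.11), 2 of 5 transcription factors (1.03), 2 of 4 S to G2 genes (1.07) and 2 of 8 G1 genes (0.42). The calls rest on each of the 4 libraries: the count of 22 was 0 without ZEB2 shRNA replicate 3, 1 without its replicate 4, 5 without WT replicate 3 and 3 without WT replicate 4, while the median over members stayed at 0.73 to 1.00.

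AURKB was at 28.0 and 25.1 CPM in ZEB2 shRNA against 6.96 and 3.12 in WT cells (2.36 ± 0.39, adjusted p = 0.0089). CDC20, the activator of the ligase that ends mitosis, was at 36.9 and 30.7 CPM against 11.6 and 7.74 (1.79 ± 0.33, adjusted p = 0.0117), and CCNB2 at 41.2 and 46.5 against 15.6 and 11.0 (1.71 ± 0.29). Both ZEB2 shRNA libraries lay above both WT libraries in these 3 genes. CDC25C was at 21.4 and 21.1 CPM against 7.32 and 6.24 (1.64 ± 0.27), FOXM1 at 44.6 and 44.9 against 14.2 and 17.2 (1.51 ± 0.23), MYBL2 at 60.4 and 49.1 against 18.7 and 15.3 (1.68 ± 0.24), and MKI67 at 264 and 288 against 105 and 91.6 (1.48 ± 0.23, adjusted p = 0.00671). Of the licensing genes, CDT1 was at 26.7 and 21.3 CPM against 3.92 and 6.77 (2.18 ± 0.37, adjusted p = 0.00983). These genes likewise showed no overlap between the groups. CDK1 was at 74.8 and 92.1 CPM against 50.3 and 26.5 (1.11 ± 0.33, adjusted p = 0.0581) and was not called, nor was PCNA, at 49.3 and 48.7 against 40.3 and 32.3 (0.43 ± 0.23). The lower gene was CDKN1B, at 48.8 and 46.9 CPM against 88.5 and 80.3 (-0.83 ± 0.18, adjusted p = 0.0211).

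In ZEB2 shRNA cells at day 10, 28 of 40 other mitosis genes were higher and 1 lower (median 1.2), beside 10.5% and 7.68% of all genes. CDCA8, a partner of AURKB and BIRC5, was at 2.46 ± 0.28. Of 41 other replication genes 13 were higher and 1 lower (median 0.64), with POLE at 1.90 ± 0.24. CDKN1C, as in NKX2-5 shRNA cells (3.06 ± 0.26), was higher than in WT cells (1.08 ± 0.25), and both comparisons share the WT libraries.

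Set against each other at day 10, NKX2-5 shRNA cells had 2 members higher and 21 lower than ZEB2 shRNA cells (10.6% and 10.8% of all genes), with a median of -0.74. CCND3 was at 44.3 and 48.3 CPM in NKX2-5 shRNA against 10.8 and 8.11 in ZEB2 shRNA cells (2.30 ± 0.24, adjusted p = 0.00225), and CDKN2B at 19.9 and 15.5 against 5.13 and 3.92 (1.98 ± 0.35, adjusted p = 0.0113). E2F8 was at 3.82 and 4.16 CPM against 18.4 and 15.6 (-2.08 ± 0.26, adjusted p = 0.0039). TOP2A was at 90.7 and 150 CPM against 434 and 508 (-1.96 ± 0.29, adjusted p = 0.00642), and CENPF, a kinetochore protein, at 90.1 and 149 against 393 and 482 (-1.86 ± 0.29, adjusted p = 0.00786). The 2 lines were apart for these 5 genes. The count of 23 was 3 without ZEB2 shRNA replicate 3, when E2F8 and CDKN2B lost their calls, and 2 without its replicate 4, when CDKN2B, TOP2A and CENPF did.

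The changes from day 6 to day 10 were then compared between lines by an interaction term. Replicate numbers change between these days for WT and for ZEB2 shRNA libraries, so the limit on how libraries were made applies here too. In NKX2-5 shRNA cells, of 44 tested members, 33 had a change that was higher than in WT and 0 had one that was lower (14.5% and 10.5% of all genes), with a median of 1.84 against 0.08 over all genes. All 8 licensing genes (median 1.21), all 3 fork genes (1.49), all 4 S to G2 genes (2.02), 5 of 6 mitotic entry genes (1.96), all 6 spindle genes (2.07) and 4 of 5 transcription factors (2.23) were among them. AURKB went from 22.0 and 21.4 to 6.96 and 3.12 CPM in WT and from 2.24 and 4.89 to 9.11 and 11.6 in NKX2-5 shRNA cells, and the changes differed by 3.60 ± 0.54 (adjusted p = 0.0012). MYBL2 went from 45.8 and 47.0 to 18.7 and 15.3 CPM in WT and from 14.4 and 16.4 to 59.7 and 46.2 in NKX2-5 shRNA cells (3.25 ± 0.26, adjusted p = 6.6e-05). BIRC5 went from 72.3 and 63.7 to 18.2 and 14.1 CPM in WT and from 9.93 and 11.2 to 17.3 and 26.4 in NKX2-5 shRNA cells (3.13 ± 0.30, adjusted p = 1.1e-04). In each of these 3 genes both WT libraries were lower, and both NKX2-5 shRNA libraries higher, at day 10 than at day 6. A higher change could also be a smaller fall. The licensing gene MCM2 went from 70.4 and 71.1 to 20.5 and 20.0 CPM in WT cells. It also fell in NKX2-5 shRNA cells, from 54.1 and 61.3 to 25.6 and 32.7 CPM. The day 6 and day 10 libraries of each line are separate samples, and the count was 29 to 35 without any 1 of them.

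In ZEB2 shRNA cells the change from day 6 to day 10 was higher than in WT for 14 of 44 members and lower for 1 (3.82% and 2.48% of all genes), with a median of 0.66 against 0.0 over all genes. AURKB was at 24.7 and 22.4 CPM at day 6 and 28.0 and 25.1 at day 10 in ZEB2 shRNA cells, against the WT decline given above (2.20 ± 0.52, adjusted p = 0.0347). CCNB2 (1.71 ± 0.31, adjusted p = 0.014) and CDC20 (1.66 ± 0.39, adjusted p = 0.0334) came next in size. CDKN2B went the other way, from 20.3 and 18.2 to 5.13 and 3.92 CPM in ZEB2 shRNA cells and from 1.43 and 2.6 to 8.86 and 5.48 in WT cells (-3.94 ± 0.54, adjusted p = 0.0039). The count of 15 was 1 without either ZEB2 shRNA day 6 library or WT day 6 replicate 2, 2 without either ZEB2 shRNA day 10 library, and 5 without WT day 6 replicate 1 or WT day 10 replicate 4. Of 40 other mitosis genes 14 had a higher change and 0 a lower one, and in NKX2-5 shRNA cells 35 and 0.

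**Figure D5:**
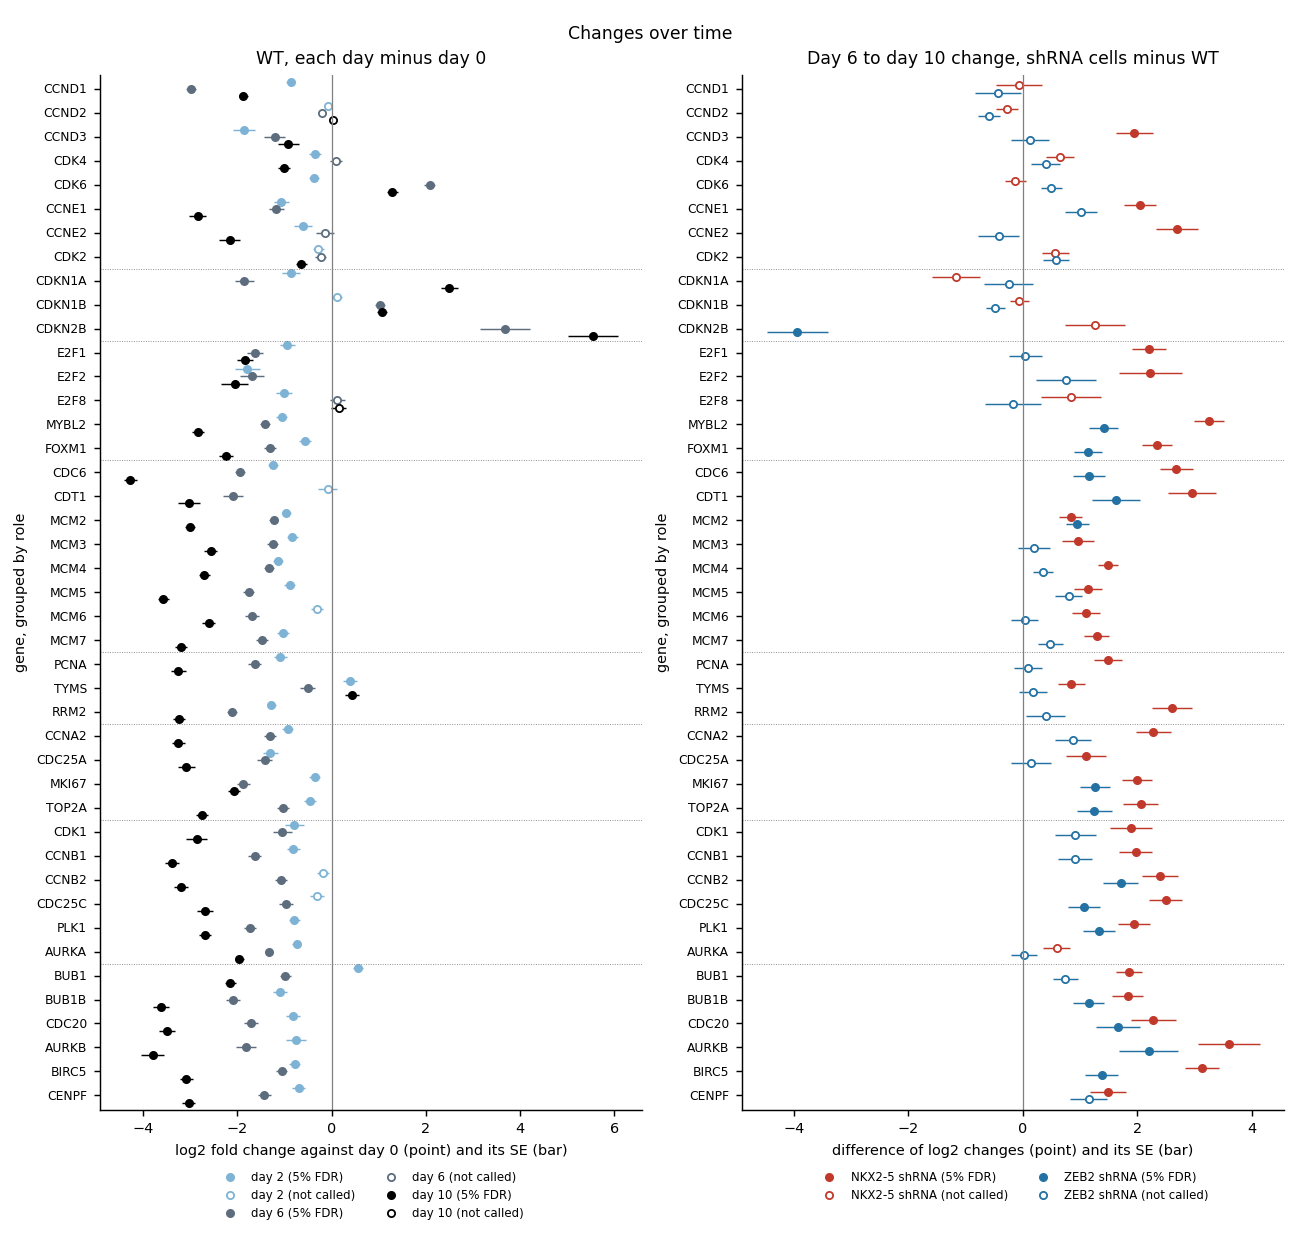
Left, log2 difference with its SE of WT cells at days 2, 6 and 10 from day 0 (CDKN2B at day 2 not drawn, since both libraries had 0 counts). Right, the day 6 to day 10 change in NKX2-5 or ZEB2 shRNA cells minus that in WT cells, for 43 members with filled points at 5% FDR, where AURKB stands at 3.60 and 2.20 and CDKN2B in ZEB2 shRNA cells at -3.94.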

How the data were processed

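The authors prepared stranded total RNA libraries (TruSeq), aligned reads to hg19 with TopHat2 2.0.14 and Bowtie2 2.2.1.0 per the submitters' processing notes, and counted reads per RefSeq gene region with RSeQC. What they deposited is a table of raw counts with 42704 rows. The strand setting and the treatment of introns in counting are not given in the sources used here. Of 41627 accessions, 40281 (96.8%, holding 97.1% of counts) matched a RefSeq symbol. The 1077 rows without an accession were left out. A further 4 columns (WT and ZEB2 shRNA at day 10, replicates 1 and 2), whose values do not follow the row order of the rest, were not used. Each of the 22 members with several rows was read from its largest row.

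Counts were fitted with edgeR 4.0.16 (quasi-likelihood test, TMM scaling, filterByExpr, Benjamini-Hochberg adjustment over all genes, calls at 5% FDR) in R 4.3.3. Groups of 1 day shared a fit, as did the WT groups over time and the day 6 and 10 groups of the interaction. SE is the absolute log2 difference over the square root of F. Log2 CPM used a prior count of 1. Libraries held 9189588 to 90798116 counts. Alternatives were DESeq2 1.42.0, its size factors in edgeR, no TMM, no filter, summed rows, 1 fit of all libraries, the study's thresholds, each library left out and a replicate block. Members and lists were chosen with earlier results of these data known. The up to 3 largest called rises and falls of each comparison are named with statistics, up to 2 per direction of each wider list, and library values are given for 7 fixed members, the 2 of each role with the widest range and further members that were chosen after their values were seen.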

Additional observations from a re-analysis of the deposited data

Results flagged for a closer look

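These results came from a test of the difference between 2 lines at 1 day, or between the changes of 2 lines from day 6 to day 10. NKX2-5 shRNA and ZNF503 shRNA cells at day 6 were both compared with WT. Between these lines 30 members differed (1 higher and 29 lower, beside 5.91% and 8.8% of all genes). They included CDK2 (0.45, higher in NKX2-5 shRNA cells) and, with lower values, CDKN2B (-1.61), MYBL2 (-1.57) and AURKB (-1.47). Between NKX2-5 shRNA and ZEB2 shRNA cells at day 10, 23 members differed (2 higher and 21 lower, beside 10.6% and 10.8% of all genes). CCND3 (2.30) and CDKN2B (1.98) were higher and E2F8 (-2.08), TOP2A (-1.96) and CENPF (-1.86) lower in NKX2-5 shRNA cells.

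The change from day 6 to day 10 differed from that in WT cells for 33 members in NKX2-5 shRNA cells. Of these 33 were higher and 0 lower, beside 14.5% and 10.5% of all genes, with the highest values in AURKB (3.60), MYBL2 (3.25) and BIRC5 (3.13). In ZEB2 shRNA cells the change differed for 15 members (14 higher and 1 lower, beside 3.82% and 2.48% of all genes). AURKB (2.20), CCNB2 (1.71) and CDC20 (1.66) were higher and CDKN2B (-3.94) lower. All values are log2 differences. Groups held 2 libraries, so no library was tested for standing apart from its group.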

How the results depend on the processing

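The up to 3 largest called rises and falls of each comparison were recomputed under the alternatives other than the study's thresholds. Of 911 such values, 811 kept their side of the 5% FDR threshold and 0 changed sign. The other 100 lost their call, most of them in fits without 1 library. Under the study's thresholds, which change the fold and the FDR together, the counts of called members were 1 (NKX2-5 shRNA), 0 (ZEB2 shRNA) and 1 (ZNF503 shRNA) at day 0, 0 and 0 (NKX2-5 and ZNF503 shRNA) at day 2, 1, 1 and 0 at day 6, 0 and 0 (NKX2-5 and ZEB2 shRNA) at day 10, 1, 1 and 17 in WT at days 2, 6 and 10 against day 0, 1 from day 6 to day 10, 0 and 0 between lines at days 6 and 10, and 3 and 1 for the changes in NKX2-5 and ZEB2 shRNA cells. In 1 fit of all libraries the counts were 4, 0 and 3 at day 0, 8 and 9 at day 2, 26 for NKX2-5 shRNA at day 10, 36 between lines at day 10 and 26 for the ZEB2 shRNA change. DESeq2 gave 3 and 1 for ZEB2 shRNA at days 0 and 2, the fit without a filter 3 and 2 for these and 9 for ZNF503 shRNA at day 0, and summed rows 0 for ZEB2 shRNA at day 0.

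Without 1 library the counts were 2 to 14, 0 and 0 to 2 (NKX2-5, ZEB2 and ZNF503 shRNA) at day 0, 7 to 21, 0 and 10 to 13 at day 2, 35 to 36, 2 to 4 and 32 to 34 at day 6, 8 to 23 and 0 to 5 (NKX2-5 and ZEB2 shRNA) at day 10, 27 to 29, 37 to 38 and 40 to 41 in WT at days 2, 6 and 10, 35 to 36 from day 6 to day 10, 13 to 27 and 2 to 33 between lines at days 6 and 10, and 29 to 35 and 1 to 17 for the changes in NKX2-5 and ZEB2 shRNA cells.

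Replicate numbers did not pair the libraries: deviations of same-numbered libraries from their group means correlated at -0.103 to 0.091 over 66 pairs of groups, 0 of them over 0.1. With a replicate block the counts were 10, 0 and 6 at day 0, 22, 2 and 25 at day 2, and 36, 5 and 35 at day 6 for NKX2-5, ZEB2 and ZNF503 shRNA, and 27 for ZEB2 shRNA at day 10. No block could be fitted for NKX2-5 shRNA at day 10, which shares no replicate number with WT. Without TMM scaling the median of all genes moved to -0.13 for NKX2-5 shRNA at day 2, 0.12 for WT at day 2, 0.21 for ZEB2 shRNA at day 10, 0.18 for its change and -0.14 between lines at day 10. The causes of these shifts were not tested. Shares of all genes called under the alternatives are not given here, so their counts compare settings only. CDKN2A and CDKN2C had too few counts to pass the filter in the comparisons of lines within a day and of WT over time, and the cause of their low counts was not tested.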
